A study of Mus musculus with 12 samples.

Results

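The constitutive proteasome subunits were taken as the array probes whose gene symbol starts with Psma, Psmb, Psmc or Psmd, without Psmb8, Psmb9 and Psmb10, which belong to the immunoproteasome. A total of 65 probes of 37 genes met this rule. Of these, 47 probes of 30 genes were detected, with a detection p under 0.01 against the negative control beads, on 4 or more of 12 arrays. They are 47 of 16179 probes, and 30 of 11836 genes counted by array symbol, that passed this filter. The samples were kidneys of 12 male C57BL/6 mice, 10 weeks old. A group of 6 mice received 0.1% saline 2 times a day, and a group of 6 received colistin, a polymyxin antibiotic with known kidney toxicity, at 16 mg/kg per day in 2 doses. Exposure lasted 72 hours, and total kidney RNA was hybridised to Illumina MouseWG-6 v2 BeadChips, which read each transcript with beads carrying 1 probe sequence. The labels name no genetic change and give each mouse its own sample.

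The proteasome is the protease that degrades proteins tagged with ubiquitin. Its core particle is a barrel of outer alpha rings, which gate the entry, and inner beta rings, which hold the peptidase sites. A regulatory particle caps the barrel: its base holds a ring of ATPases that unfold the substrate, and its lid removes the ubiquitin. In many mammalian cells, loss of proteasome activity is met by the transcription factor Nfe2l1, which raises the genes of most subunits together, often through antioxidant response elements in their promoters. The comparison asks whether the subunit transcripts of the kidney differed after colistin.

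None of the 30 measured genes passed the test for a difference between colistin and saline kidneys, and the estimates were small in both directions. The other 7 genes of the rule had no detected probe and could not be compared. Of the 47 probes, 0 passed an adjusted p of 0.05 (limma, Benjamini-Hochberg over all 16179 probes), beside 74 of all probes, or 0.457%. Of these 74, 52 lay higher (0.321%) and 22 lower (0.136%) in colistin mice. At an unadjusted p under 0.05 the count was 0 of 47, beside 10.9% of all probes. The 2 groups overlapped in every one of the 47 probes, while 1.0% of all probes had groups that did not overlap. Each gene was represented by its kept probe with the highest mean signal: 14 of the 30 genes lay higher and 16 lower in colistin mice, with a median log2 fold change of 0.00, beside 0.01 over all 11836 genes. The gene values ran from -0.30 for Psmd14 to 0.13 for Psmd11. With arrays scaled to a common median in place of quantile normalization, the median of all genes moved to 0.19 and that of the 30 genes to 0.18. On that scale 12 of the 30 genes lay above the all-gene median and 18 below it.

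For probes well above background, the arrays limited the size of difference that could have been missed. Nearer to background the offset of 16 compresses log2 fold changes, so a narrow interval does not bound the difference there. Psmd2, Psmd6 and Psmd9 were read only at such levels, with mean log2 signals in saline mice of 5.04, 5.01 and 4.99. The 95% interval of the log2 fold change lay between -0.5 and 0.5 for 44 of the 47 probes (93.6%), beside 70.6% of all kept probes. Counted by gene, it did so for 29 of 30, the exception being Psmd14. The within-group SD had a median of 0.15 over the 47 probes and 0.22 over all kept probes of any brightness. It was smallest for Psma4 (0.06) and largest for 1 of the 4 probes of Psmb7 (0.48). With 12 genes read by at least 2 kept probes, the estimates of different probes of a gene lay at most 0.17 apart, in Psmc4, and had opposite signs in 5 genes.

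**Figure D1:**
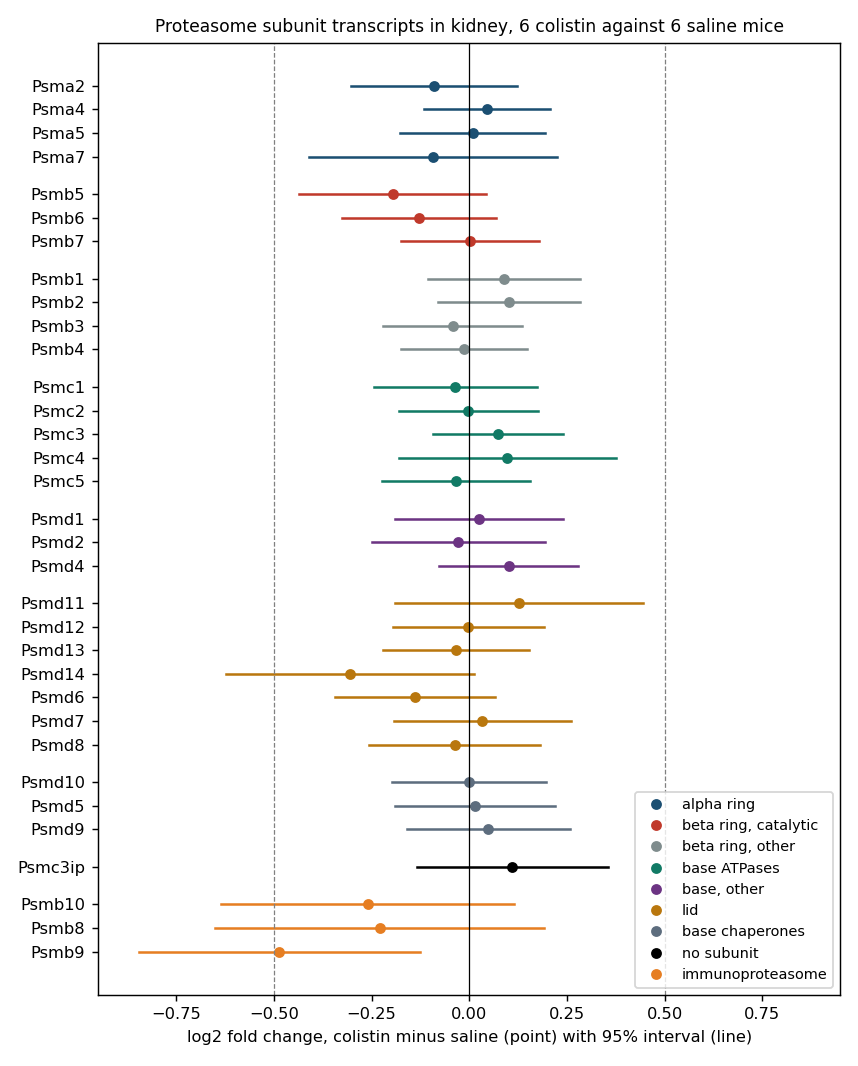
Log2 fold change, colistin minus saline, of the brightest kept probe of each gene (point) with its 95% interval from limma (line), 6 mice per group, ordered by place in the particle. Dashed lines stand at -0.5 and 0.5. Intervals are not adjusted for the number of probes. Those of all 30 genes, Psmd14 included, cross 0. That of the immunoproteasome subunit Psmb9 does not, although Psmb9 did not pass the test (limma adjusted p = 0.313). Signs are those after quantile normalization. With median scaling 28 of the 30 genes lay above 0, and 12 above the median of all genes.

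The promoters of the 2 catalytic genes Psmb5 and Psmb6 and of Psmd14, which gave the lowest values among the subunits that act as enzymes, are shown here from the RefSeq table (GRCm38.p6), each as the 250 bases before the transcription start, 5′ to 3′ on the strand of the gene. Capitals mark the antioxidant response element core TGACNNNGC in Psmb5 (chr14:54617996-54618245, minus strand) and Psmb6 (chr11:70525107-70525356, plus strand), where it begins 47 and 9 bases before the start. In Psmd14 (chr2:61711444-61711693, plus strand), which holds no such core, capitals mark the CCAAT box, here on the reverse strand as ATTGG, 159 bases before the start.
Psmb5: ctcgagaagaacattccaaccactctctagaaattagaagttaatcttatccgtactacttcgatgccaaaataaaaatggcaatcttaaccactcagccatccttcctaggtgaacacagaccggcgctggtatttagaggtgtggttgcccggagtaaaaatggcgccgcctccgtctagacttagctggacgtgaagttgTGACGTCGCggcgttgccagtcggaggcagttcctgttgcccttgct
Psmb6: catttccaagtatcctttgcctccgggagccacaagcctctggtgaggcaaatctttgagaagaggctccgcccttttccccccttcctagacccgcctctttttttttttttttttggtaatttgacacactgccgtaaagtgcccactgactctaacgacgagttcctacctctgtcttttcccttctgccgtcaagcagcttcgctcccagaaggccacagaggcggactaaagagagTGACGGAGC
Psmd14: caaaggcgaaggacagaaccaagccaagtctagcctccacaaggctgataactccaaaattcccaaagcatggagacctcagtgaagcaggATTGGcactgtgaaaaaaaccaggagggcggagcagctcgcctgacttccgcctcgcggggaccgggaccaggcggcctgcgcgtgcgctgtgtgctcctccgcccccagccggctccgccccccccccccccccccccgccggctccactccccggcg

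The other subunit promoters with the element core were those of the base chaperone Psmd9 (chr5:123228151-123228175, plus strand), the lid subunit Psmd12 (chr11:107479278-107479297, plus strand) and the base ATPase Psmc6 (chr14:45329589-45329613, plus strand). Their cores are given in capitals with their flanks, and those of Psmd12 and Psmc6 lie on the reverse strand.
Psmd9: ctagccggTGACCCCGCccacttcc
Psmd12: tctGCTGTGTCAcatttgcc
Psmc6: agccagtaGCTAAGTCAggcattgc
The core, searched on both strands over 250 bases before and 50 after the start, was found in 5 of 31 promoters of 29 genes of the rule, Psmc3ip left out as no subunit (16.1%), beside 12.4% of all 32851 promoters in the table. The CCAAT box, the motif of the factor NF-Y, was in 12 of the 31 (38.7%), beside 37.4% of all. The 4 measured genes with the element core had a median log2 fold change of -0.07 and the 20 without it -0.02. A motif match is a description of the letters and not a binding site.

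In the alpha rings, 4 genes were measured and the estimates lay between -0.09 and 0.05. Psma2 was at -0.09 ± 0.10 (log2 fold change ± SE), Psma4 at 0.05 ± 0.08, Psma5 at 0.01 ± 0.09 and Psma7 at -0.09 ± 0.15. All of them are structural subunits that carry no peptidase site. Psma7 varied most within the groups: both of its probes, at -0.09 and -0.14, were read on 12 arrays. The probes of Psma1, Psma3 and Psma6, alpha subunits found in most cells, and of Psma8, the testis-specific alpha subunit, were detected on 0 arrays. Psma1, for one, had raw signals between 82.9 and 91.5. An undetected probe does not show that the transcript was missing from the kidney.

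The 3 catalytic beta subunits were all measured, and 0 of their 6 probes passed the test. Psmb5 carries the chymotrypsin-like site, which is the main target of proteasome inhibitor drugs. Its normalized log2 signal ran from 8.83 through a median of 9.20 to 9.44 in saline mice and from 8.70 through 9.02 to 9.12 in colistin mice. All 6 colistin mice lay below the saline mean of 9.17 ± 0.21 (SD, n = 6), yet the groups overlapped, since saline mice 2 and 3 lay at 9.05 and 8.83. The colistin mean was 8.97 ± 0.16 (SD, n = 6), a log2 fold change of -0.20 ± 0.11 (SE; 95% interval -0.44 to 0.04; limma adjusted p = 0.530), which was 0.04 with median scaling, where the median of all genes was 0.19.

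Psmb6 carries the caspase-like site. Its log2 signal ran from 10.72 through a median of 11.03 to 11.14 in saline mice and from 10.75 through 10.84 to 10.99 in colistin mice. Here too all 6 colistin mice lay below the saline mean of 10.99, while saline mouse 1 was the lowest of all 12. The log2 fold change was -0.13 ± 0.09 (SE, limma adjusted p = 0.597). With median scaling it was 0.05, or -0.15 relative to the median of all genes on that scale.

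Psmb7 carries the trypsin-like site and was read by 4 probes. On the brightest, the log2 signal ran from 11.40 through 11.58 to 11.67 in saline mice and from 11.43 through 11.59 to 11.66 in colistin mice. The 2 ranges nearly coincided, and the log2 fold change was 0.00 ± 0.08 (SE; 95% interval -0.17 to 0.18; limma adjusted p = 0.995). The other 3 probes gave -0.01, -0.06 and -0.07. The thymus-specific beta subunit Psmb11 was detected on 0 arrays.

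The beta subunits without a peptidase site gave 2 estimates above and 2 below 0. Psmb1 was at 0.09 ± 0.09 (log2 fold change ± SE), Psmb3 at -0.04 ± 0.08 and Psmb4 at -0.01 ± 0.08. For Psmb2, the log2 signal ran from 10.81 through 10.90 to 11.05 in saline mice and from 10.89 through 10.99 to 11.23 in colistin mice. Of the colistin mice, 5 lay above the saline mean of 10.92 and the groups overlapped. The log2 fold change was 0.10 ± 0.09 (SE; limma adjusted p = 0.637), the second probe gave 0.10, and without colistin mouse 4 the value was 0.06.

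**Figure D2:**
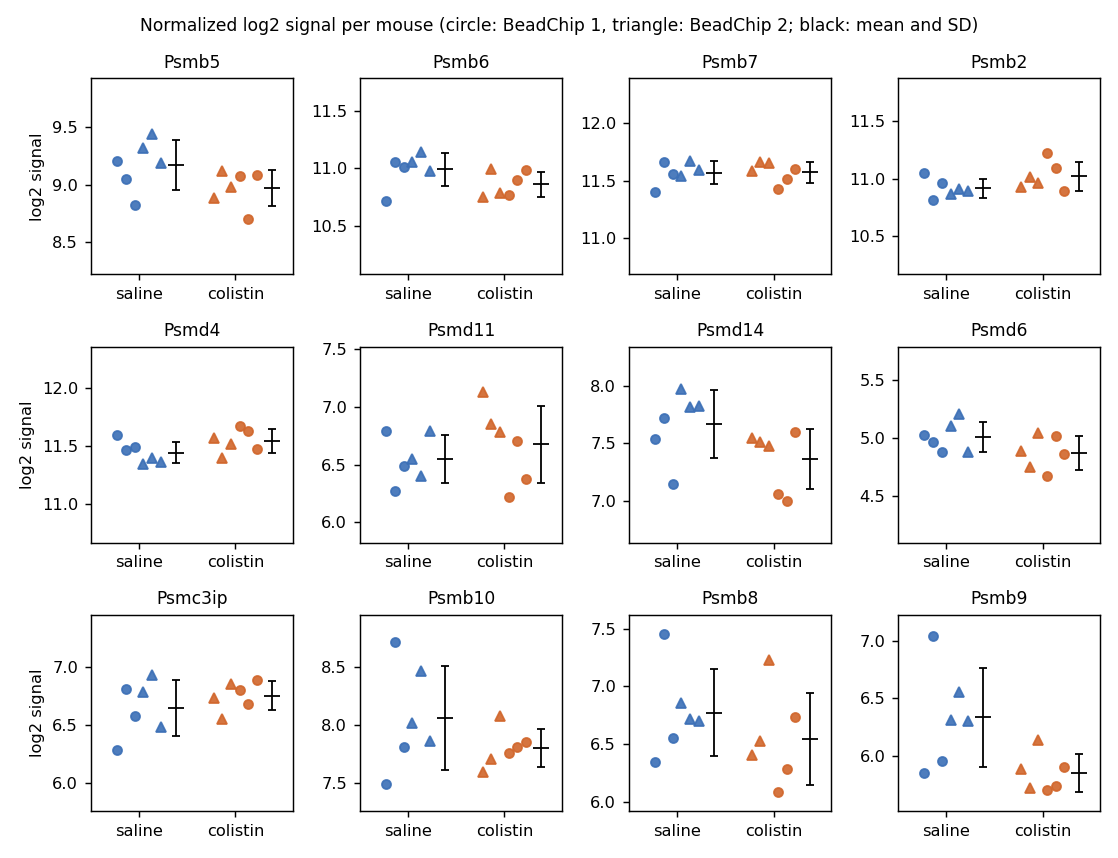
Normalized log2 signal in each mouse for 9 genes of the rule and for the immunoproteasome subunits Psmb10, Psmb8 and Psmb9 (circles: BeadChip 1; triangles: BeadChip 2; black: mean and SD of 6 mice). Each panel has its own level, and levels are not compared between genes. In every panel the groups overlap, with saline mouse 2 highest in the 3 immunoproteasome panels.

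In the base, the 5 measured ATPases, which thread the substrate into the core, lay between -0.04 and 0.10. Psmc1 was at -0.04 ± 0.10 (log2 fold change ± SE), Psmc2 at 0.00 ± 0.08, Psmc3 at 0.07 ± 0.08, Psmc4 at 0.10 ± 0.13 and Psmc5 at -0.03 ± 0.09. The 2 probes of Psmc6 were detected on 0 arrays. Among kept probes of all genes of the rule, the second probe of Psmc4 was detected on the fewest arrays, 5, and the next was a probe of Psmd9, on 8. All 18 probes left out were detected on 0 arrays, so none was detected on some arrays but too few to pass. Their raw signals were at most 101.6.

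The large scaffold subunits of the base, Psmd1 and Psmd2, lay at 0.02 ± 0.10 and -0.03 ± 0.10 (log2 fold change ± SE), Psmd2 on a probe detected on 9 arrays. Psmd4 is a ubiquitin receptor of the regulatory particle. Its log2 signal ran from 11.35 through 11.43 to 11.60 in saline mice and from 11.39 through 11.54 to 11.68 in colistin mice. The groups overlapped, with 5 of 6 colistin mice above the saline mean of 11.44, and the log2 fold change was 0.10 ± 0.08 (SE; limma adjusted p = 0.639). The base chaperones Psmd5, Psmd9 and Psmd10, which help assemble the ATPase ring and are absent from the mature particle, lay at 0.01, 0.05 and 0.00.

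The lid held both ends of the range. Psmd14 is the deubiquitinase that cuts the ubiquitin chain from the substrate as it enters. Its log2 signal ran from 7.15 through a median of 7.77 to 7.97 in saline mice and from 7.00 through 7.50 to 7.60 in colistin mice. All 6 colistin mice lay below the saline mean of 7.67 ± 0.29 (SD, n = 6), and saline mouse 3, at 7.15, lay below 4 of them. The colistin mean was 7.37 ± 0.26 (SD, n = 6), and the log2 fold change was -0.30 ± 0.15 (SE; 95% interval -0.62 to 0.01; unadjusted p = 0.0585; limma adjusted p = 0.478). This was the smallest p among the 47 probes. The second probe gave -0.16 ± 0.17 (SE). Median scaling of the first probe gave -0.05, or -0.24 relative to the median of all genes on that scale. Leaving out 1 mouse moved the first probe between -0.41 and -0.23, with -0.41 without saline mouse 3 (limma adjusted p = 0.201).

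Psmd11, a lid scaffold subunit, had the highest gene value. Its log2 signal ran from 6.27 through 6.52 to 6.79 in saline mice and from 6.22 through 6.74 to 7.13 in colistin mice. Colistin mice held both the lowest and the highest of the 12 values, and the log2 fold change was 0.13 ± 0.15 (SE; limma adjusted p = 0.740). Its estimate was -0.08 on BeadChip 1 and 0.34 on BeadChip 2. It was 0.04 without colistin mouse 1, 0.07 without saline mouse 2 and 0.22 without colistin mouse 4. With median scaling it was 0.35, or 0.15 relative to the median of all genes on that scale.

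Psmd6, another lid subunit, was near background, detected on all 6 saline arrays and on 3 of the colistin arrays. Its log2 signal ran from 4.88 through 4.995 to 5.21 in saline mice and from 4.67 through 4.87 to 5.04 in colistin mice. The groups overlapped, with 4 of 6 colistin mice below the saline mean, and the log2 fold change was -0.14 ± 0.10 (SE; limma adjusted p = 0.586). Of the other lid genes, Psmd7 was at 0.03, Psmd8 at -0.04, Psmd12 at 0.00 and Psmd13 at -0.03, and both probes of Psmd3 were detected on 0 arrays.

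The symbol rule also takes Psmc3ip, which is no subunit: it encodes a protein of meiotic recombination. Its log2 signal ran from 6.28 through 6.68 to 6.93 in saline mice and from 6.55 through 6.77 to 6.90 in colistin mice. The colistin range lay within the saline range, and the log2 fold change was 0.11 ± 0.11 (SE; limma adjusted p = 0.706), and 0.04 without saline mouse 1.

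**Figure D3:**
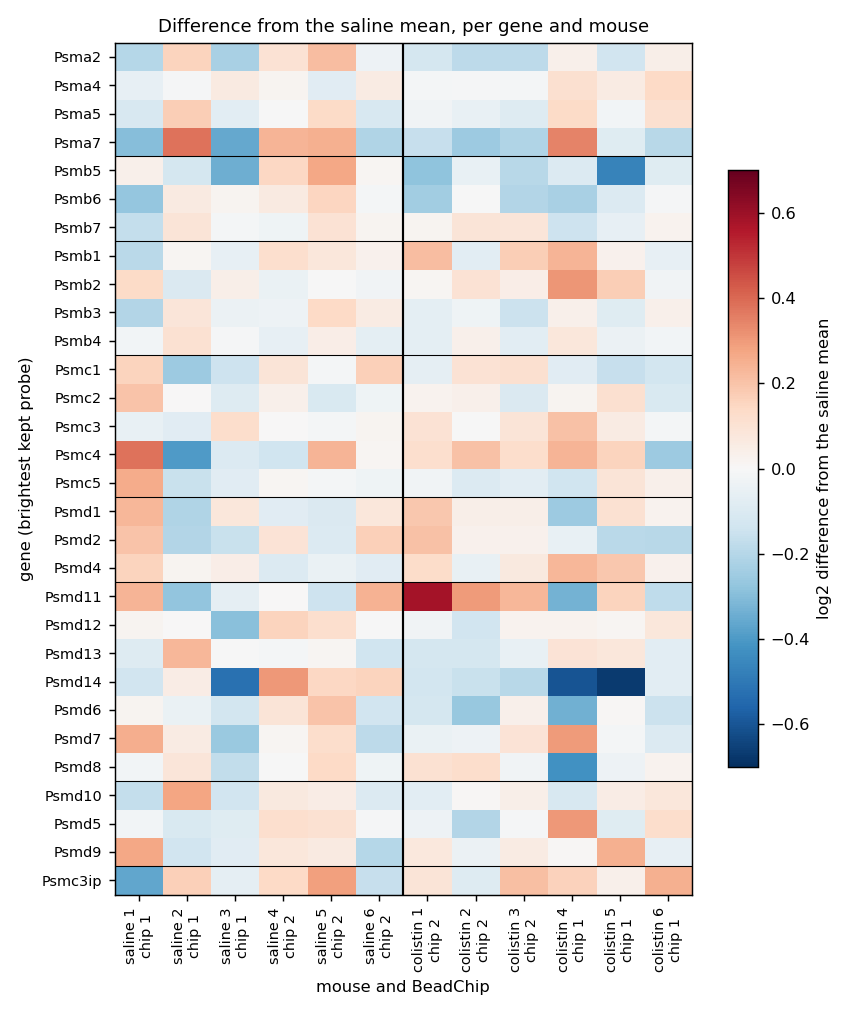
Log2 value relative to the saline mean for each of the 30 genes (rows, grouped by place in the particle, in the order of the interval plot) and each mouse (columns). The widest rows are Psmd14 and Psmd11 of the lid, and no column is of 1 colour throughout.

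Read by mouse, the 30 genes of the rule, Psmc3ip and the base chaperones included, did not shift as a block with treatment. Each value was taken relative to its gene's saline mean, and the median over the 30 genes in a mouse ran from -0.08 in saline mouse 3 to 0.09 in saline mouse 5, and from -0.03 to 0.03 in the 6 colistin mice. The colistin medians thus lay inside the saline range. In saline mouse 1 the alpha ring genes had a median of -0.16 and the base ATPases 0.20, while in saline mouse 2 these were 0.16 and -0.16. Saline mouse 5 had the dimmest array, with a 95th percentile of raw signal of 475 beside at least 752 on the others, and its part in its median of 0.09 was not tested. Saline mouse 2 lay apart on the first principal component of all kept probes, at 64.6, with 28.7 for the next mouse.

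**Figure D4:**
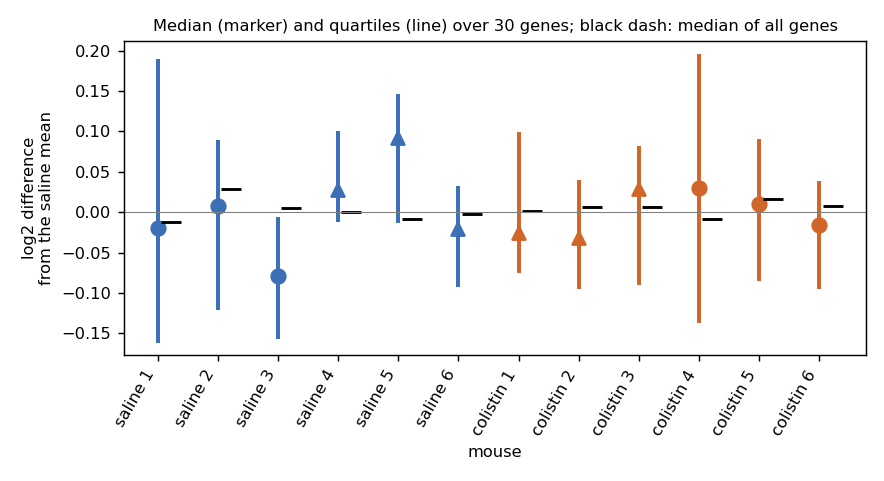
Median (marker) and quartiles (line) over the 30 genes, in log2 units relative to the saline mean of each gene, by mouse (blue: saline; orange: colistin; circle: BeadChip 1; triangle: BeadChip 2), with the median of all 11836 genes as a black dash. The colistin medians lie between -0.03 and 0.03, inside the saline range of -0.08 to 0.09.

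Each BeadChip held 3 mice of each group, with saline and colistin mice at alternating positions, so position and treatment cannot be told apart. On BeadChip 1, 0 of the 47 probes had an unadjusted p under 0.05, beside 2.10% of all probes. On BeadChip 2, 5 of the 47 did, beside 20.7% of all probes, and 0 passed after adjustment, beside 1.84%. These 5 were probes of Psma2, Psma7, Psmb5, Psmd11 and Psmd14, with Psmd14 at -0.36 (limma adjusted p = 0.111) and at -0.25 on BeadChip 1. The estimates on the 2 BeadChips had the same sign for 25 of 47 probes (53.2%), beside 63.4% of all probes. For the interaction of treatment and BeadChip, 0 of the 47 probes and 0 of all probes passed after adjustment. At an unadjusted p under 0.05, 1 of the 47 did, a probe of Psmd7, beside 2.55% of all.

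Immune and interferon-stimulated cells replace the 3 catalytic subunits with Psmb8, Psmb9 and Psmb10. The estimates of all 3 were below 0 after quantile normalization, and 0 of their 5 probes passed the test. With median scaling those of Psmb8 and Psmb10 were 0.00. The median of all genes was 0.19 on that scale, and all 3 lay below it. In bulk kidney RNA, fewer cells of a type and less RNA per cell cannot be told apart. Psmb9 had log2 signals from 5.85 through 6.31 to 7.04 in saline mice and from 5.71 through 5.81 to 6.14 in colistin mice. All 6 colistin mice lay below the saline mean of 6.34, but saline mice 1 and 3 lay within the colistin range. The log2 fold change was -0.49 ± 0.17 (SE; limma adjusted p = 0.313). It was -0.28 with median scaling and -0.26 without saline mice 2 and 5.

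Psmb10 ran from 7.49 through 7.94 to 8.72 in saline mice and from 7.59 through 7.78 to 8.08 in colistin mice, with a log2 fold change of -0.26 ± 0.18 (SE; limma adjusted p = 0.582). Psmb8 ran from 6.35 through 6.71 to 7.46 in saline mice and from 6.08 through 6.46 to 7.23 in colistin mice, with a log2 fold change of -0.23 ± 0.20 (SE; limma adjusted p = 0.652). In both, the colistin and saline ranges overlapped. Saline mouse 2 was the highest of the 12 mice for all 3 genes, and without it and saline mouse 5 the value of Psmb10 was 0.01 and that of Psmb8 -0.07. Without saline mouse 2 alone Psmb10 was at -0.13 and Psmb8 at -0.09. Psmb8 was at -0.37 without colistin mouse 3 and at -0.14 without colistin mouse 4, and at -0.42 on BeadChip 1 and -0.04 on BeadChip 2.

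The change of each immunoproteasome subunit was set against that of its constitutive counterpart within each mouse, as 3 pairs. Psmb9 relative to Psmb6 differed by -0.36 on the log2 scale, colistin minus saline, below the saline mean in 5 of 6 colistin mice (exact two-sided permutation p = 0.0476, 0.143 after adjustment over the 3 pairs), and differed by -0.23 without saline mouse 2 and by -0.18 without saline mice 2 and 5. Psmb10 relative to Psmb7 differed by -0.26 (exact permutation p = 0.152, adjusted 0.227), by -0.15 without saline mouse 2 and by -0.04 without saline mice 2 and 5. Psmb8 relative to Psmb5 differed by -0.03 (exact permutation p = 0.887), with -0.35 on BeadChip 1 and 0.28 on BeadChip 2. No pair held after adjustment.

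Markers of immune, endothelial and fibroblast cells are given beside these values, and 0 probes of these lists passed the test. The macrophage list had 4 of 5 genes detected, Cd68 being detected on 0 arrays, and the median of its genes ran from -0.38 to 0.38 in saline mice and from -0.80 to -0.17 in colistin mice. Within it, the 3 complement genes C1qa, C1qb and C1qc lay at -0.38, -0.51 and -0.48, while the 2 probes of Csf1r lay at 0.15 and 0.35. The Csf1r probe at 0.35 was near background, detected on 0 saline and 4 colistin arrays. It passed the filter through the colistin group alone. The endothelial list had 4 of 5 genes detected, with medians from -0.81 to 0.31 in saline mice and from -0.64 to -0.26 in colistin mice. For lymphocytes, Cd52 lay at -0.65, while Cd3e, Cd8a and Ms4a1 were detected on 0 arrays. Of the fibroblast genes, Dcn lay at -0.78 and Pdgfrb at -0.71, each with 6 of 6 colistin mice below the saline mean. Col1a1 was at 0.01 on a probe near background, detected on 6 arrays, and Col3a1 was detected on 0 arrays. The part of these cells in the immunoproteasome values was not tested. Kidney tubule markers were present: all 5 proximal tubule genes (Lrp2, Cubn, Slc34a1, Aqp1 and Slc5a2) were detected on 12 arrays, and 0 of their 9 kept probes passed the test. Pvalb, a marker of the distal convoluted tubule, was lower in colistin mice, at -1.13 ± 0.19 (log2 fold change ± SE, limma adjusted p = 0.0136). Its groups did not overlap. Slc12a3, the other gene of that list, was at -0.25 ± 0.20 on its brightest probe (limma adjusted p = 0.633). Its other probes ran from -0.46 to 0.14, and of the list's 6 kept probes 1 passed the test. The thick ascending limb, collecting duct and podocyte lists had median log2 fold changes of 0.28, -0.13 and -0.20, with 0 probes called. The 4 measured genes of dividing cells (Mki67, Top2a, Prc1 and Cdc2a) passed the test, 4 of 4 higher in colistin mice. Their median log2 fold change was 1.32. Top2a was detected on 0 saline and 6 colistin arrays, so it passed the filter through the colistin group alone. Cdc2a was detected on 3 saline and 6 colistin arrays. Of the adipocyte genes, Cfd lay at -0.08 and Car3 at -0.28, and Adipoq, detected on 2 arrays, was left out. Saline mouse 1 was the highest of the 12 mice for both Cfd and Car3, with log2 signals of 11.64 and 7.16.

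Genes that work with the particle gave 59 kept probes of 39 genes, counted by current symbol, in 8 lists, and 0 passed the test. At an unadjusted p under 0.05 there were 4 (6.78%, beside 10.9% of all probes), which were probes of Uchl5, AI314180, Psmf1 and Mafg. Uchl5 is a deubiquitinase of the regulatory particle: 1 of its 4 probes lay at 0.37 ± 0.11 (log2 fold change ± SE; limma adjusted p = 0.209) and the other 3 between -0.01 and 0.11. AI314180, now Ecpas, encodes an adaptor that binds the particle, and lay at -0.44 ± 0.15 (SE; limma adjusted p = 0.313). Psmf1, an inhibitor of the core particle, gave -0.28 ± 0.12 on 1 probe and 0.17 ± 0.16 on another.

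Among activators, Psme1 had probes at -0.08 and 0.15. Among assembly factors of the core particle, the maturation factor Pomp was at 0.05, and the 3 probes of the chaperone Psmg2 lay between -0.09 and 0.10. The subunits with other symbols, Adrm1, a ubiquitin receptor, and Shfm1, lay at 0.21 ± 0.19 and -0.14 ± 0.16 (log2 fold change ± SE).

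Upstream of the particle, the ubiquitin-activating enzyme Uba1 had a probe at 0.22 ± 0.22 (log2 fold change ± SE) and another, under the older symbol Ube1x, at -0.15 ± 0.11, and the ubiquitin gene Ubb was at 0.09. Of the ubiquitin shuttles and related adaptors, Zfand2a was at -0.16. Of the cofactors of the segregase Vcp, which extracts proteins for degradation, Nploc4 was at 0.18 and Faf1 had probes at -0.13 and 0.00. Of the transcription factors, Mafg, a partner of Nfe2l1, was at 0.25 ± 0.11 (SE; limma adjusted p = 0.446) on 1 probe and at 0.12 ± 0.10 on another, listed as C630022N07Rik, and the NF-Y subunit Nfyc at 0.25 ± 0.16. Nfe2l1 itself, named after its value was seen, was at -0.02 ± 0.11 (SE; limma adjusted p = 0.947).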

How the data were processed

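Kidney RNA of 12 mice, 6 per group by the sample titles, was read on 2 BeadChips. The authors deposited the mean bead signal of 45281 probes as linear intensities, not background-subtracted per the values, and detection p-values per the file headers. Normalized intensities, also deposited by the authors, served as an alternative. The submitters' processing notes name GenomeStudio and Partek without saying what each did.

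The raw intensities were corrected and quantile-normalized with neqc (offset 16, which compresses the log2 fold changes of dim probes) in limma 3.58.1 (R 4.3.3). The filter kept probes detected (p under 0.01) on 4 or more arrays, whatever their group. Groups were compared with lmFit and eBayes, two-sided, with group as the only term and Benjamini-Hochberg adjustment over 16179 probes, called at an adjusted p under 0.05. The fit was tested on simulated data. Single values per mouse were compared by exact permutation. The number of arrays limits the precision. The arrays detected between 14661 and 16154 probes.

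The members and lists were chosen with earlier results of these data known. Values per mouse are given for the 4 genes with the largest rise, the 4 with the largest fall and the 3 with the smallest p, for Psmb5, Psmb6 and Psmb7 and for the immunoproteasome subunits. Of each related list, the 2 members with the smallest p are given, except 1 that is not reported here. Alternatives covered the background, normalization, values, filter, BeadChip, replicate number, variance model, array weights, threshold and each mouse left out. The values of the 3 pairs on each BeadChip and without single mice were added after seeing the data. Promoters came from RefSeq (GRCm38.p6), and of the 36 subunit and chaperone genes of the rule 7 had no entry. The list of transcription factors holds the nuclear respiratory factor Nrf1 beside Nfe2l1.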

Additional observations from a re-analysis of the deposited data

Results flagged for a closer look

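Of 104 groups of 6 mice, 2 for each of the 47 member probes and 5 immunoproteasome probes, 8 held a mouse far from the other 5, where chance gives about 1 in 20. Colistin mouse 4 was that mouse in 5 of the 8. A probe of Psmb7 (ILMN_2836147) read 10.30 on the log2 scale in colistin mouse 4, with the others between 8.76 and 9.08, while the 3 other probes of Psmb7 were not singled out in this mouse. In the same mouse Psma7 (ILMN_2793488) read 11.34, with the nearest at 10.91. Psmd8 (ILMN_2678019) read 9.635, with the nearest at 10.02. A probe of Psmd10 (ILMN_2694080) read 7.82, with the nearest at 8.32, and a probe of Psmd1 (ILMN_2915861) read 5.98, with the nearest at 6.39. Colistin mouse 6 read 9.80 for Psmc4 (ILMN_2632349), with the nearest at 10.17. Saline mouse 3 read 9.27 for Psmd12 (ILMN_2896805), with the nearest at 9.56, and 6.20 for a probe of Psmd7 (ILMN_1253915), with the nearest at 5.57. The cause of these values was not tested.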

How the results depend on the processing

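The count of subunit probes called was 0 under each of the 26 settings run, 12 of which left out 1 mouse, and at an adjusted p under 0.10. The smallest adjusted p of a subunit probe in any of them was 0.111, on BeadChip 2 alone. The median over the genes of the rule, Psmc3ip and the base chaperones included, minus that over all genes ran from -0.03 to 0.03. The median itself was 0.18 with median scaling, where the median of all genes was 0.19. The related lists had 0 calls under the same 26 settings. The count over all probes, 74, was less stable: 25 with no background correction, 45 with an offset of 50, 27 when detected on all 12 arrays, 33 with no filter, 0 on BeadChip 1, 298 on BeadChip 2, 471 with array weights, and 138 at an adjusted p under 0.10. Leaving out 1 mouse gave 38 to 330, the highest without saline mouse 1. That mouse also read highest for the adipocyte markers Cfd and Car3, and the part of this in the count was not tested. Of the calls 70.3% were higher in colistin mice, beside 92.0% with no background correction, 93.8% with median scaling, 34.6% on BeadChip 2, 42.3% with array weights, 88.9% with the replicate block and 32.4% without saline mouse 1. The replicate number as a block gave 36 calls over all probes and 0 among subunits. Same-numbered mice did not deviate together (r from -0.26 to 0.12), so the numbers were not taken as pairs.

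Signs turned for small values. Psmb5 was 0.037 and Psmb6 0.047 with median scaling, where the median of all genes was 0.19. Relative to that median they lay at -0.16 and -0.15. Psmb7 was -0.028 and Psmd11 -0.084 on BeadChip 1, Psmc3ip -0.017 on BeadChip 2, and Psmb10 0.0065 without saline mice 2 and 5. Leaving out 1 mouse moved Psmb7 between -0.032 and 0.031. Psmb8 relative to Psmb5 was 0.28 on BeadChip 2, 0.088 without saline mice 2 and 5, and from -0.17 to 0.13 with 1 mouse left out. The cause was not tested. Intervals were widest for probes with large spread between mice. Of the 47, 3 reached below -0.5 on the log2 scale, and the highest upper bound was 0.496.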

Other observations

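The array also carries probes for predicted transcripts that its definitions call similar to proteasome subunits, and 4 of these 5 probes were detected on 12 arrays. Psma3, the alpha subunit also known as C8, was detected on 0 arrays by its own probe, while LOC100047184 and LOC385905, both defined as similar to the same subunit, were detected on all 12. Their log2 fold changes were -0.10 ± 0.10 and -0.01 ± 0.12 (SE), with limma adjusted p of 0.700 and 0.980. LOC634015, defined as similar to the beta subunit Psmb3, was at -0.22 ± 0.11 (SE; limma adjusted p = 0.494), with 5 of 6 colistin mice below the saline mean, beside -0.04 ± 0.08 for Psmb3 itself. LOC621823, defined as similar to the activator subunit Psme2, was at -0.14 ± 0.18 (SE). The probe of MGC107702, defined as similar to Psmb7, was detected on 0 arrays. The signal of a predicted copy and that of the gene it resembles cannot be told apart here.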
